A study of Mus musculus with 6 samples.

Results

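Expression of 10 genes of JAK-STAT signaling was examined in JNK-deficient breast tumor cell lines and in primary mammary epithelial cells. The genes were *Jak1*, *Jak2*, *Stat3*, *Stat5a*, *Stat5b*, *Stat6*, *Socs1*, *Socs2*, *Socs3* and *Cish*. They were found by symbol, and each of the 10 had 1 entry of its own among the 37753 entries with values. The control group (MEC) was 3 primary cultures of mammary epithelial cells on collagen I, each pooled from 3 to 5 virgin WAPCre+ females of the C57/Bl6J strain aged 10 to 12 weeks. The tumor group (MEKO) was 3 cell lines, 199, 233 and 336, grown from tumors of Cre+ animals of the same strain that are labelled Mapk8KO Mapk9KO. The Wap promoter drives Cre in luminal cells during lactation, so the virgin donors of MEC carried the transgene without having lactated, whereas the tumors arose in mice that had been bred. Each line came from 1 tumor, and the study's records list, by the same numbers, adenosquamous carcinoma for mouse 199, adenocarcinoma for mouse 336 and both for mouse 233. The MEC medium held 5% serum, EGF and insulin, and the growth medium described for the lines held serum without mention of either factor. The paper bred its females at 10 to 12 weeks and followed them for tumors after weaning, so the tumor donors were older. It also describes moving the lines from collagen to standard dishes after 2 passages. Genotype, tumor origin, parity, animal age, medium, culture surface and time in culture therefore cannot be told apart.

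Cytokine and hormone receptors without kinase activity bind a Janus kinase (JAK), which phosphorylates a STAT transcription factor when ligand binds. In the mammary gland STAT5A and STAT5B act after prolactin to drive alveolar development and milk protein genes, STAT3 acts after LIF to drive involution when milk stagnates, and STAT6 acts after IL-4 and IL-13. SOCS proteins and CIS, the product of *Cish*, are induced by STATs and restrain the receptors, so their transcripts are commonly read as a feedback output of the pathway.

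Values are FPKM as deposited, fragment numbers scaled to transcript length and to the size of the library. *Mapk8*, which encodes JNK1, had 23.1, 25.1 and 19.2 FPKM in MEC 1 to 3, and 5.93, 3.12 and 1.37 FPKM in lines 199, 233 and 336. *Mapk9*, which encodes JNK2, had 24.4, 21.5 and 22.1 FPKM in MEC, and 7.62, 3.15 and 3.07 FPKM in the lines. Both were lower in every line than in every MEC library, as the labels state. The summed level of 5 luminal markers was 5308 to 8869 FPKM in MEC and 789 to 1962 FPKM in the lines. Line 199 stood apart in other markers, with 2259 FPKM summed over 6 basal genes, near the 1484 to 2775 FPKM of MEC, and 1081 FPKM over 6 fibroblast genes, against 95.7 to 179 FPKM in MEC. Lines 233 and 336 had 10.6 and 58.6 FPKM of the basal genes and 2.38 and 1.82 FPKM of the fibroblast genes. The genes in these 2 sums did not move together in line 199, and they are named after their values were seen. *Col1a1*, *Col1a2*, *Col3a1* and *Pdgfra* lay above every MEC library, with 600 FPKM for *Col1a1*. *Dcn* and *Lum* lay below, at 0.311 and 0.0264 FPKM. Of the basal genes, *Acta2* and *Myh11* lay below every MEC library and the others did not, with *Myh11* at 0.0812 FPKM against 22.4 to 41.8 FPKM in MEC. The 7 leukocyte markers in the table summed to 22.4 to 47.1 FPKM in MEC and to 0.802, 2.77 and 23.5 FPKM in lines 199, 233 and 336, where *Cd68* gave nearly all of the last value. *Cd3e* was at 0 in each line and near 0 in MEC as well, at 0.0408, 0.0198 and 0 FPKM. The 4 endothelial markers summed to 1.67 to 13.9 FPKM in MEC and 0.164 to 0.430 FPKM in the lines, and 4 adipocyte markers to 1.28 to 11.7 and 0.0898 to 1.17 FPKM. The part of these other cell types in the changes below was not tested. In bulk RNA, fewer cells of a type and less RNA per cell cannot be told apart.

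Differences were tested with limma on log2(FPKM + 1) across all 12461 genes with a mean of at least 1 FPKM, as MEKO minus MEC. A gene was called with a Benjamini-Hochberg adjusted p under 0.05 and a log2 fold change beyond 0.75 in either direction, the study's thresholds. All 10 genes passed the expression filter. *Stat3*, *Stat5a* and *Stat5b* fell in MEKO, and the other 7 genes were not called in either direction. Of all tested genes, 9.9% were called, 7.26% as lower and 2.64% as higher. The median log2 fold change of the 10 genes was -0.43, against 0.01 over all tested genes. In 4 of the 10, *Jak1* and the 3 called genes, every line lay below every MEC library, as it did for 18.7% of all tested genes. The groups did not overlap in either direction in 37.2%. No gene of the 10 had every line above MEC, a pattern found in 18.5% of tested genes. Taken line by line, 39.1%, 37.9% and 37.4% of tested genes lay below every MEC library in lines 199, 233 and 336, and 40.2%, 37.4% and 39.2% lay above. More than 2-fold above every MEC library were 6.34%, 5.6% and 5.78% of them, and more than 2-fold below were 12.1%, 13.7% and 14.4%. The p-values measure the spread between these preparations and lines, and an exact permutation test of 3 against 3 libraries cannot give a two-sided p below 0.1.

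**Figure D1:**
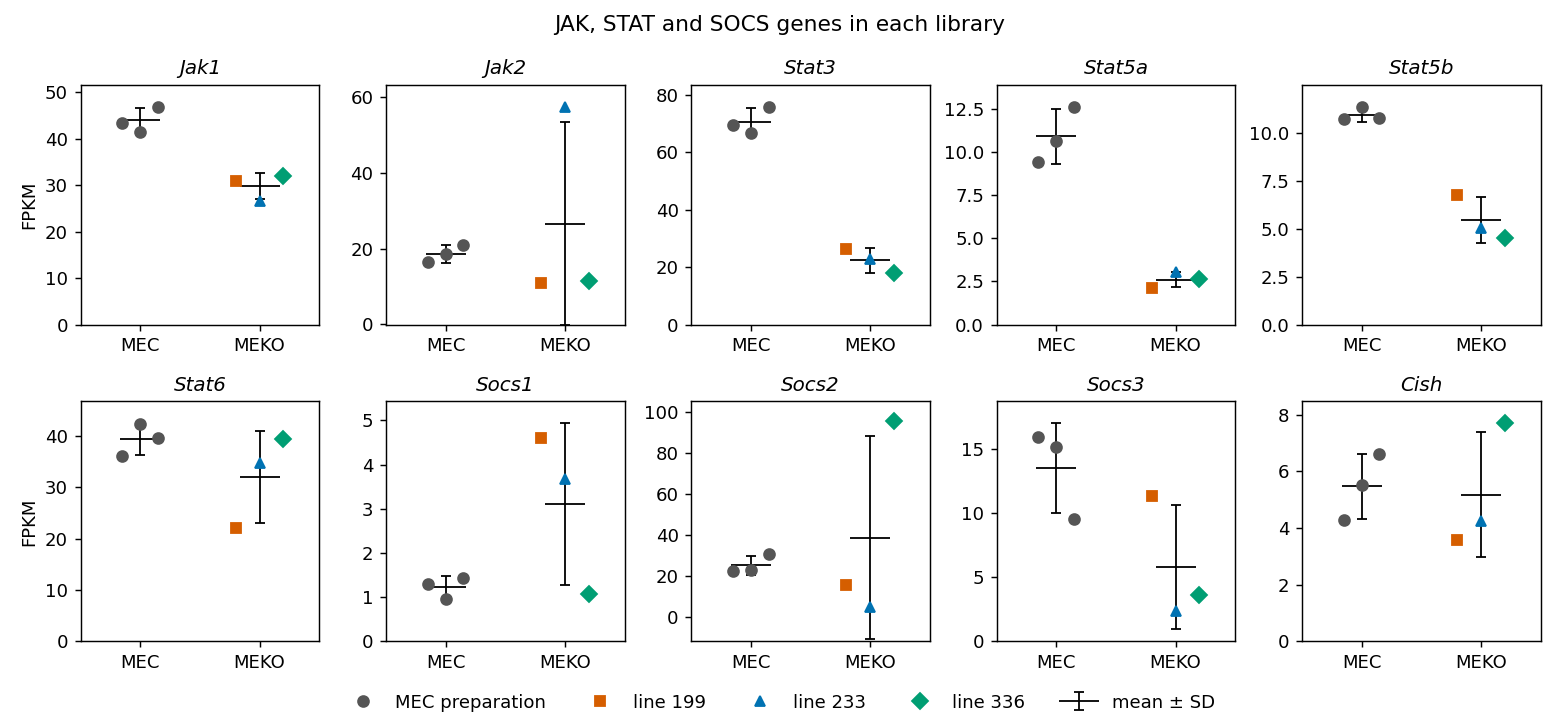
FPKM of each of the 10 genes (y axis, linear, a scale per gene) in 3 MEC preparations (grey circles) and MEKO lines 199, 233 and 336 (orange squares, blue triangles and green diamonds), with the group mean ± SD in black (n = 3). The groups lie apart in *Jak1*, *Stat3*, *Stat5a* and *Stat5b*, while *Jak2* is high in line 233 alone at 57.5 FPKM and *Socs2* in line 336 alone at 95.6 FPKM.

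The STAT genes held the called changes. *Stat3* had the highest level of the 10 genes in each MEC library, with 69.4, 66.7 and 75.9 FPKM in MEC 1 to 3. Lines 199, 233 and 336 had 26.5, 22.9 and 17.9 FPKM. The lines did not reach the MEC range, and line 336 kept the least, at 25.4% of the MEC mean. *Stat3* fell from 70.7 ± 4.73 to 22.5 ± 4.31 FPKM (SD, n = 3), by limma a log2 fold change of -1.63 ± 0.18 (standard error) with an adjusted p of 0.00457. It was called under each of its 13 alternatives.

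*Stat5a*, the main STAT5 gene of the lactating mammary gland, had 9.40, 10.6 and 12.6 FPKM in MEC and 2.15, 3.03 and 2.65 FPKM in lines 199, 233 and 336. The lines lay close together, at 19.7% to 27.8% of the MEC mean, and the highest line was far below the lowest MEC library. By limma, MEKO minus MEC was -1.72 ± 0.19 (log2, standard error, adjusted p = 0.00484 from limma), and *Stat5a* was called under each of its 13 alternatives. The log2 ratio of the mean FPKM values was -2.06, since the added 1 FPKM compresses changes of genes at this level.

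*Stat5b*, its close paralog, had 10.7, 11.4 and 10.8 FPKM in MEC and 6.78, 5.03 and 4.50 FPKM in the lines. MEC differed little among themselves, by 1.06-fold from lowest to highest, and line 199 stayed nearest to them at 61.9% of the mean. The limma estimate was -0.91 ± 0.18 (log2, standard error, adjusted p = 0.0314 from limma). The call was lost in 6 of 13 alternatives, 5 of which left out 1 library (MEC 1, 2 or 3, line 233 or line 336), with limma adjusted p values up to 0.140 and a log2 fold change that stayed between -1.05 and -0.80.

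The balance of the STAT5 pair was different in the lines. The ratio of *Stat5a* to *Stat5b* FPKM was 0.877, 0.938 and 1.17 in MEC and 0.317, 0.602 and 0.590 in lines 199, 233 and 336. The ratio was lower in every line than in each MEC library (exact permutation test on the log2 ratio, two-sided, p = 0.1, the smallest possible), with line 199 the lowest. The summed FPKM of the pair was 20.1, 22 and 23.4 in MEC and 8.93, 8.05 and 7.15 in the lines. The longest open reading frames of the pair were 90.8% identical over the aligned bases in GENCODE M21 transcripts, and they shared an unbroken run of 324 bases. Of all 150-base windows of the longest *Stat5a* coding transcript, 4.68% also occur in *Stat5b*, so part of the reads could be assigned to either gene. No other pair within the JAK, STAT or SOCS genes shared a 40-base window.

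*Stat6* had 36.2, 42.3 and 39.7 FPKM in MEC. Lines 199, 233 and 336 had 22, 34.8 and 39.4 FPKM, so line 336 lay within the MEC range and line 199 at 55.9% of its mean. On the log2 scale limma gave -0.33 ± 0.23 (log2, standard error, adjusted p = 0.404 from limma). The ratio of *Stat3* to *Stat6* was 1.92, 1.58 and 1.91 in MEC and 1.21, 0.657 and 0.456 in the lines. *Stat3* was above *Stat6* in MEC and in line 199, and below it in lines 233 and 336.

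*Stat5b*, *Stat5a* and *Stat3* lie side by side on chromosome 11 of GRCm38, the build of the files, at 100780731 to 100850724, 100859351 to 100885169 and 100885098 to 100939540. The last pair overlap by 72 exonic bases at their ends on opposite strands, 1.01% of the exonic bases of *Stat5a*. Whether the library kept strand is not given in the sources used here. Within 500 kb of the cluster 33 other genes were tested, with a median log2 fold change of -0.03. Only *Cnp* was called among them, as lower, and is named after its value was seen. The median log2 ratio of these neighbours to MEC was 0.03, 0.10 and -0.16 in lines 199, 233 and 336. The 3 STAT genes had log2 ratios from -1.92 to -0.62 across the lines, so the fall was not shared by the typical neighbour. Single neighbours reached lower values, down to -4.56 in line 233.

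**Figure D2:**
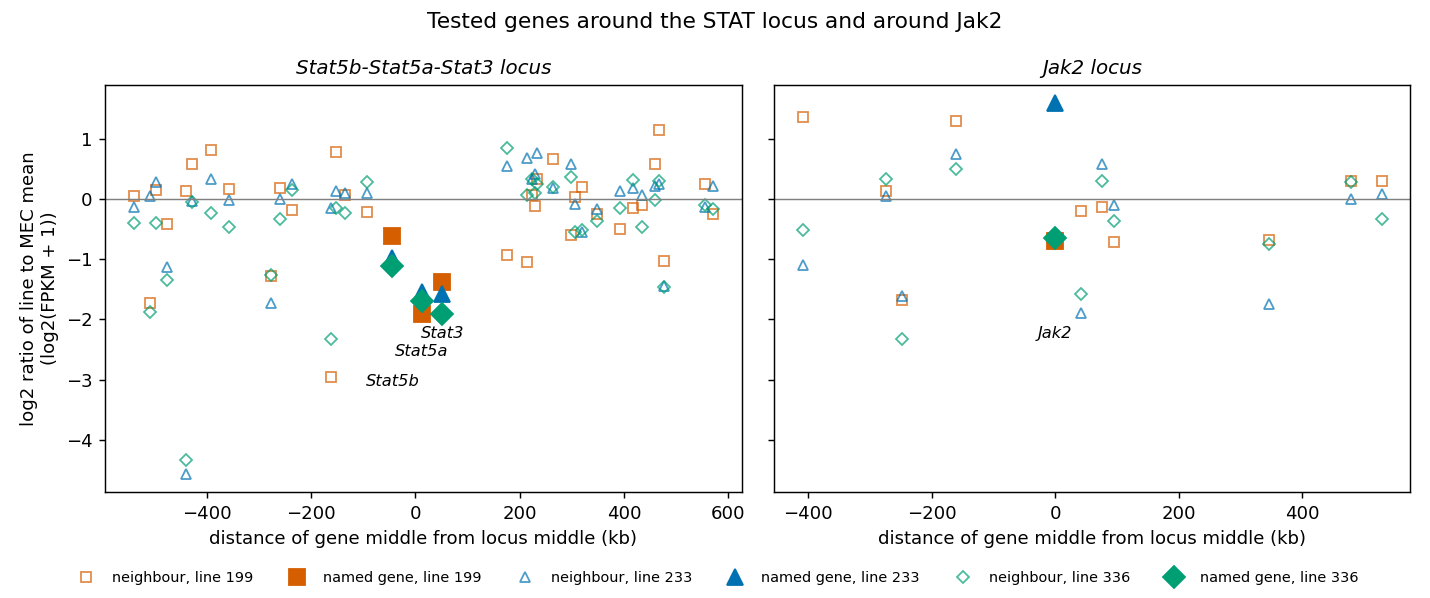
Log2 ratio of each line to the MEC mean (y axis, on log2(FPKM + 1)) for tested genes within 500 kb of the *Stat5b*, *Stat5a* and *Stat3* cluster (left) and of *Jak2* (right), against the distance of the middle of the gene from the middle of the locus in kb. Filled symbols are the named genes and open symbols the neighbours, which scatter around 0 with medians of 0.03, 0.10 and -0.16 at the STAT cluster and -0.01, -0.05 and -0.35 at *Jak2* in lines 199, 233 and 336.

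The genes with the most similar pattern over the 6 libraries were named by the smallest Euclidean distance between log2(FPKM + 1) values centred on the MEC mean. They were *Nrip1* (distance 0.15), *Nod1* and *KCTD12* for *Stat3*, and *Dhdds* (0.12), *Tpbg* and *Daam1* for *Stat5b*. For *Stat5a* they were a joined entry of *Tmsb15b1*, *Tmsb15b2* and *Tmsb15l* (0.22), then *Tbc1d30* and *Ehhadh*. *Nrip1*, a nuclear receptor corepressor, had 22.6, 22.2 and 24.0 FPKM in MEC and 8.05, 6.38 and 4.96 FPKM in the lines.

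The kinases were less uniform. *Jak1*, which is used by most cytokine receptor families, had 43.5, 41.6 and 46.9 FPKM in MEC and 31.0, 26.7 and 32.0 FPKM in lines 199, 233 and 336. Every line was below every MEC library, at 60.7% to 72.8% of the mean. The limma change of -0.54 ± 0.14 (log2, standard error, adjusted p = 0.0594) missed both thresholds. It was not called under any of its 13 alternatives. The adjusted p ran from 0.0253 to 0.204 over these limma fits, and the log2 fold change stayed between -0.60 and -0.47.

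*Jak2*, the kinase of the prolactin and growth hormone receptors, had 16.4, 18.5 and 20.9 FPKM in MEC. Lines 199 and 336 had 11.02 and 11.4 FPKM, below MEC, while line 233 had 57.5 FPKM, 3.10 times the MEC mean. It is among the 5.6% of tested genes more than 2-fold above every MEC library there. Between groups the difference was 0.08 ± 0.61 (log2, standard error, adjusted p = 0.949 from limma). Without line 233 it was -0.67 (limma adjusted p = 0.0814), so the sign of the mean rested on that line. The neighbours of *Jak2* were examined after its value was seen. Among 10 tested within 500 kb on chromosome 19, 1 was called (*Ak3*, lower), and the highest log2 ratio in line 233 was 0.74, against 1.59 for *Jak2*. The ratio of *Jak1* to *Jak2* was 2.25 to 2.66 in MEC, 2.81 in lines 199 and 336, and 0.464 in line 233.

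The feedback genes *Socs1*, *Socs2*, *Socs3* and *Cish* were not called, and each had a different order of the lines. Among 9 of the 10 genes with a RefSeq promoter window (GRCm38.p6, 250 bases before to 50 bases after the start), the STAT palindrome TTCNNNGAA was found in *Socs3* and *Cish*. The 9 genes had 11 windows, and *Socs2* had none and was not searched. The motif reads the same on both strands, and 8.3% of all 32851 promoter windows hold it. The form linked to STAT6, with 4 bases between TTC and GAA, also reads the same on both strands. It was in none of these 9 genes and in 6.95% of all windows. The stretches that hold the matches are shown because both genes are textbook STAT targets, with the motif in capitals and bases written 5′ to 3′ on the gene's strand.
*Socs3*, chr11:117969452-117969616, minus strand: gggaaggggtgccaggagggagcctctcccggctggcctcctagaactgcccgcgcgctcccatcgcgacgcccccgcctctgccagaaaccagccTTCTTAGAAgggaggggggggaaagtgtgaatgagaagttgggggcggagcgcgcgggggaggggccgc
*Cish*, chr9:107296654-107296683, plus strand: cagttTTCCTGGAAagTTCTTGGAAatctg
The *Socs3* match begins 154 bases before the RefSeq start. It lies inside the GENCODE span of the gene but in no GENCODE exon of it. The 2 *Cish* matches begin at bases 1 and 12 after its RefSeq start and lie in a GENCODE exon within the gene. A match describes letters and shows no binding.

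*Socs3*, which restrains receptors of the gp130 family, had 15.9, 15.2 and 9.54 FPKM in MEC. Lines 199, 233 and 336 had 11.4, 2.38 and 3.64 FPKM. Line 199 lay within the MEC range, and the other lines were at 17.6% and 26.9% of the MEC mean. In the limma fit the change was -1.30 ± 0.50 (log2, standard error, adjusted p = 0.153 from limma). Without line 199 it was -1.85 and called (limma adjusted p = 0.0152).

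*Cish*, which dampens STAT5 signaling, had 4.29, 5.51 and 6.60 FPKM in MEC and 3.58, 4.26 and 7.69 FPKM in lines 199, 233 and 336. The groups overlapped, with line 336 above every MEC library and the other lines below. MEKO differed from MEC by -0.11 ± 0.29 (log2, standard error, adjusted p = 0.840 from limma), and its sign was not stable over the alternatives. *Cish* per unit of summed *Stat5a* and *Stat5b* FPKM was 0.214, 0.250 and 0.282 in MEC and 0.402, 0.529 and 1.08 in the lines (exact permutation test on the log2 ratio, two-sided, p = 0.1, the smallest possible). Every line was above MEC in this ratio. Its divisor, the summed pair, was lower in every line, and *Cish* itself was not called. The ratio and its p therefore largely restate the lower sum and are no separate result on *Cish*. The antisense transcript *Gm17041*, with mean levels of 6.98 FPKM in MEC and 5.43 FPKM in MEKO, covers 7.46% of the exonic bases of *Cish*, so reads there cannot be separated without strand.

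*Socs2*, a target of growth hormone and STAT5, spanned the widest range. It had 22.2, 22.7 and 30.7 FPKM in MEC, and 15.7, 4.78 and 95.6 FPKM in lines 199, 233 and 336. The lines differed 20-fold from lowest to highest, against 1.38-fold in MEC, whose libraries each pooled several animals. Line 336 was at 3.80 times the MEC mean and line 233 at 19.0% of it. Limma put the change at -0.30 ± 0.95 (log2, standard error, adjusted p = 0.864 from limma), while the log2 ratio of mean FPKM was 0.62. The limma value was 0.63 without line 233 and -1.40 without line 336, so the sign rested on which line was present.

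*Socs1*, an inhibitor of interferon receptor signaling, was the lowest of the 10 genes in MEC, with 1.30, 0.946 and 1.42 FPKM. Lines 199 and 233 had 4.59 and 3.66 FPKM, above MEC, and line 336 had 1.06 FPKM, within its range. The fitted difference was 0.77 ± 0.40 (log2, standard error, adjusted p = 0.265 from limma). Without line 336 it was 1.21 and called (limma adjusted p = 0.0377), which leaves out the only line at the MEC level.

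The 10 genes differed in their spread among the lines. The SD of log2(FPKM + 1) over the lines was 2.05 for *Socs2*, 1.31 for *Jak2*, 0.97 for *Socs3*, 0.77 for *Socs1*, 0.49 for *Cish* and 0.43 for *Stat6*, against a median of 0.33 over all tested genes. In *Stat5a*, *Jak1*, *Stat5b* and *Stat3* it was 0.18, 0.14, 0.26 and 0.27, below that median. These are the genes whose groups did not overlap, a pattern that a small spread favours, so the split is no separate result. The added 1 FPKM also compresses the spread of *Stat5a* at its low level. Within MEC the median SD was 0.18, and the 10 genes ranged from 0.04 for *Stat5b* to 0.38 for *Socs3*. Each MEC library pooled 3 to 5 animals, whereas each line came from 1 tumor, so the spreads of the groups are not like for like.

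**Figure D3:**
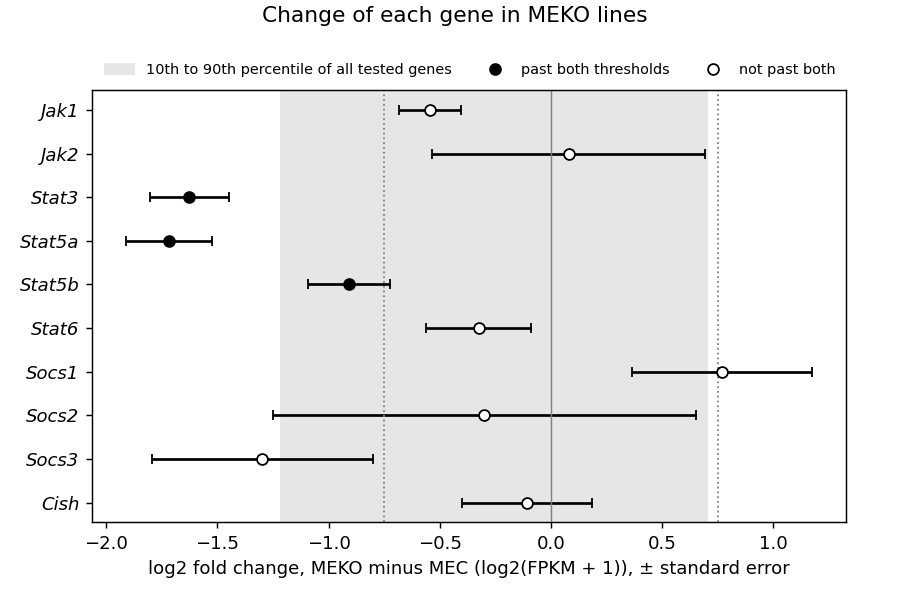
Log2 fold change of MEKO against MEC (x axis, on log2(FPKM + 1)) with its standard error from limma for the 10 genes, filled where both thresholds were passed, with dotted lines at -0.75 and 0.75. The grey band spans the 10th to 90th percentile of all tested genes, -1.21 to 0.70. *Stat3*, *Stat5a* and *Socs3* lie below it at -1.63, -1.72 and -1.30, and *Socs1* above it at 0.77, of which the SOCS genes were not called.

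Other genes of the pathway were counted from lists. Beside them, 7.26% of all tested genes were called lower and 2.64% higher, with a median log2 fold change of 0.01. Of 29 receptor genes, 17 entries were tested, and 4 of them fell while none rose, with a median log2 fold change of -0.43. The 4 were *Osmr*, *Lifr*, *Il11ra1* and *Il13ra1*, of which the first 3 pair with gp130 to signal mainly through STAT3, and the last is a subunit of the IL-13 receptor. *Osmr*, the oncostatin M receptor, had 16.2, 15.4 and 23.7 FPKM in MEC and 7.03, 2.39 and 0.901 FPKM in lines 199, 233 and 336. Each line was below MEC, and the log2 fold change was -2.36 (limma adjusted p = 0.0390).

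*Lifr*, the LIF receptor, had 1.94 to 2.31 FPKM in MEC and 0.0107 to 0.516 FPKM in the lines, a log2 fold change of -1.42 (limma adjusted p = 0.0251). *Il11ra1* had 8.85 to 13.9 and 2.79 to 4.74 FPKM, a log2 fold change of -1.34 (limma adjusted p = 0.0225). *Il13ra1* had 19.2 to 24.1 and 2.65 to 6.43 FPKM, a log2 fold change of -1.94 (limma adjusted p = 0.0154). The common subunit gp130 (*Il6st*) was not among the called genes, with 24.1 to 26.2 FPKM in MEC and 21.5 to 26.6 FPKM in the lines (limma adjusted p = 0.706). The prolactin receptor entry, which joins *Prlr* with *Agxt2* and *Gm21973*, was under the expression filter and was not tested. It had 1.74, 1.64 and 2.00 FPKM in MEC and 0.0716, 0 and 0.232 FPKM in lines 199, 233 and 336. *Il6st* and *Prlr* lie outside the rule for named genes. The number of receptors called lower ranged from 0 to 6 over the alternatives and was 5 without line 199. The call of *Osmr* was lost in 7 of 13 alternatives, that of *Lifr* in 5 of 12, that of *Il11ra1* in 4 of 13 and that of *Il13ra1* in 3 of 13.

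Of all 12461 tested genes, 3509 had an unadjusted limma p under 0.05. None of 14 tested ligand entries was called by limma, and 5 had an unadjusted p under 0.05. Their median log2 fold change was -0.32, and up to 4 were called lower in an alternative. The 14 include entries that join *Epo* with *Gnb2*, among the 5, and *Cntf* with *Zfp91*. They are named because their values cannot be assigned to the ligand alone. None of 4 tested entries of other JAK and STAT genes was called by limma, with 1 at an unadjusted p under 0.05. The *Jak3* entry among them is joined with *Insl3* and is named for that reason. None of *Socs4* to *Socs7* was called, and none had an unadjusted p under 0.05. Of 12 other negative regulators, 1 fell and none rose, near the 7.26% called lower and 2.64% called higher of all tested genes. Their median log2 fold change was 0.03. The gene that fell was *Ptpn1*, which encodes a phosphatase that acts on JAK2 and TYK2. It had 25.1, 25.8 and 26.1 FPKM in MEC and 17.2, 10.4 and 12.2 FPKM in the lines, a log2 fold change of -0.93 (limma adjusted p = 0.0374), and its call was lost in 5 of 13 alternatives.

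Known target genes were counted in 3 further lists, whose members have other regulators as well. Beside them, 7.26% of all tested genes were called lower and 2.64% higher, with a median log2 fold change of 0.01. Of 17 mammary STAT5 targets, 11 were tested, and 3 fell while none rose, with a median log2 fold change of -0.96. The list includes *Socs2*, *Socs3* and *Cish*. Every line lay below every MEC library in 4 of the tested entries and above in 2, against 18.7% and 18.5% of all tested genes. The 2 were *Ccnd1* and *Bcl2l1*, named after their values were seen and not called. *Ccnd1* had 119 to 174 FPKM in MEC and 314 to 806 FPKM in the lines (limma adjusted p = 0.0586). *Bcl2l1* had 65.4 to 76.9 and 87.3 to 170 FPKM (limma adjusted p = 0.0945). Over the alternatives 2 to 5 of the list were called lower and 0 to 2 higher, with 5 lower and 1 higher without line 199. The 3 that fell were the casein genes *Csn3* and *Csn1s1* and *Elf5*, a transcription factor of alveolar cells. *Elf5* had 31.5, 32.8 and 44.3 FPKM in MEC and 0.0199, 0 and 0.461 FPKM in the lines, a log2 fold change of -5.01 (limma adjusted p = 0.000645). *Csn1s1* had 5.38, 7.04 and 1.42 FPKM in MEC, was listed at 0 in lines 199 and 233 and at 0.0305 FPKM in line 336, and had a limma adjusted p of 0.0308. The call was lost in 5 of 12 alternatives, with quantile normalization and without MEC 1, MEC 2, line 233 or line 336, at limma adjusted p values up to 0.127. *Csn3* had a log2 fold change of -10.11. *Wap* itself and *Csn2* were listed at 0 in all 6 libraries. All 4 marker genes of alveolar progenitors, *Elf5* among them, were called lower, and their part in these changes was not tested.

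Of 23 STAT3 targets, each tested, 6 fell and 1 rose, with a median log2 fold change of -0.87. The list includes *Socs3*, and it shares *Osmr* and *Il4ra* with the receptor list, the last named for this overlap. Of all tested genes, 7.26% were called lower and 2.64% higher. The gene that rose was *Myc*, named after its value was seen, at a log2 fold change of 1.03 (limma adjusted p = 0.0486). In 11 of 13 alternatives, among them each that left out an MEC library, line 199 or line 336, no gene of the list was called higher. Those that fell were *Igfbp5*, *Cebpd*, *Cd14*, *Osmr*, *Ctsb* and *Bcl6*, the last 2 named to complete the count. *Igfbp5*, a factor of mammary involution, had 131, 103 and 244 FPKM in MEC and 1.55, 0.0318 and 0.591 FPKM in the lines, a log2 fold change of -6.54 (limma adjusted p = 0.00139). *Cebpd*, which encodes C/EBPδ, had 118, 83.1 and 102 FPKM in MEC and 27.4, 2.68 and 13.0 FPKM in the lines, a log2 fold change of -3.16 (limma adjusted p = 0.0402). *Cd14* had 64.7 to 113 and 6.51 to 37.3 FPKM, with a limma adjusted p of 0.0435. For both *Cebpd* and *Cd14* the lines lay below MEC, and the call was lost in 6 of 13 alternatives. The number of STAT3 targets called lower ranged from 1 to 12 over the alternatives, and was 9 without line 199.

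Of 11 STAT6 targets 10 were in the table and 5 entries were tested. The tested entries include *Socs1* and *Cish*, and also *Il4ra*, which is in the STAT3 list too. Beside 7.26% of all tested genes called lower and 2.64% higher, *Arg1* and *Gata3* fell while none rose. Neither was called without MEC 1, MEC 2, MEC 3 or line 233, with a pseudocount of 0.1 or with no expression filter. *Arg1*, which encodes arginase 1, had 48.3, 32.2 and 66.1 FPKM in MEC and 7.77, 1.85 and 15.5 FPKM in the lines (limma adjusted p = 0.0487), and the call was lost in 9 of 13 alternatives. The entry of *Gata3*, a luminal transcription factor, is joined with *9230102O04Rik* and had 13.6, 13.6 and 21.5 FPKM in MEC and 0.279, 2.00 and 5.52 FPKM in the lines (limma adjusted p = 0.0435), and the call was lost in 6 of 13 alternatives. Of 3 tested leukocyte markers, *Lyz2* and *Laptm5* also fell, named after their values were seen, with *Lyz2* at 16.5 to 32.9 FPKM in MEC and 0 to 0.0182 FPKM in the lines.

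**Figure D4:**
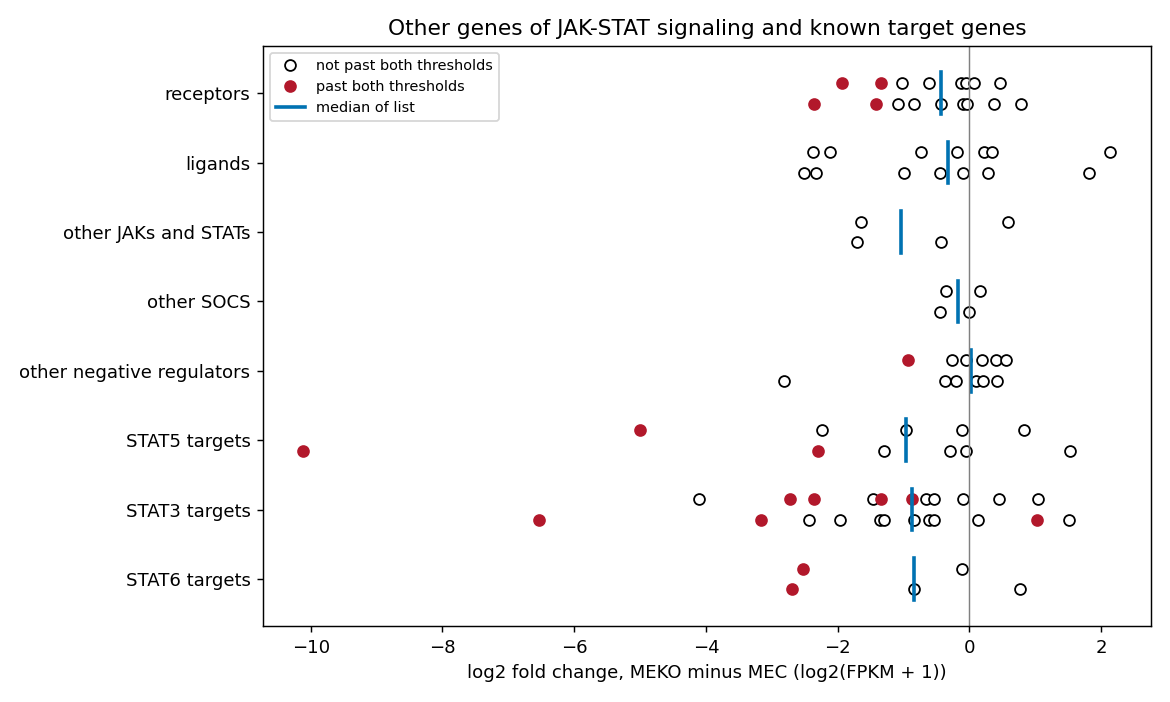
Log2 fold change of MEKO against MEC (x axis, on log2(FPKM + 1)) of each tested entry in lists of JAK-STAT pathway genes and of STAT target genes (y axis), with red points past both thresholds and blue bars at the median of the list. The medians of the target lists lie at -0.96 for STAT5, -0.87 for STAT3 and -0.84 for STAT6, and the 1 red point above 0 is *Myc*, a call lost in at least 11 of 13 alternatives.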

How the data were processed

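RNA-seq libraries of 3 MEC preparations and 3 MEKO lines were analysed, grouped by sample title. The authors trimmed paired-end 150-base reads, aligned them to mm10 (GRCm38) with Bowtie2 and TopHat2 2.0.14, and deposited FPKM per gene from Cufflinks 2.2.1. FPKM carry no read numbers, so depth is unknown and no counting interval was given. Of 37755 entries, 2 held no values. The summed FPKM of a library was 557991 to 638365.

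Groups were compared on log2(FPKM + 1) by limma 3.58.1 under R 4.3.3 (mean-variance trend, Benjamini-Hochberg adjustment over 12461 genes with a mean of at least 1 FPKM), after a check on simulated data. Cuffdiff and count-based tools were not used. Exact permutation tests were two-sided (20 splits). Positions, exons and transcripts came from GENCODE M21 on GRCm38, promoters from RefSeq. Genes named from a list were the 4 with the largest change among called genes, those of most similar pattern were the 3 nearest to each called gene of the 10, and names outside this rule are marked. The 10 genes and the lists were chosen with earlier results of these data known. Protein sequences were not analysed here.

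Alternatives were a filter at 5 FPKM or none, a pseudocount of 0.1, quantile normalization, upper-quartile scaling, no trend, sample weights, the adjusted p alone and each library left out in turn.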

Additional observations from a re-analysis of the deposited data

How the results depend on the processing

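The number of called genes, 1234 with the settings above, was 738 with a filter at a mean of 5 FPKM, 1978 with sample weights (whose fit stopped before full convergence), and 300 (without MEC 1) to 1886 (without line 199) with 1 library left out. Of these, 329 were higher in MEKO, and that number was 600 with sample weights and 49 (without MEC 1) to 546 (without line 199) with 1 library left out. The number of the 10 genes called ranged from 2 to 4 with 1 library left out. *Stat3* and *Stat5a* kept their direction and call in each alternative, and *Stat5b*, *Jak1*, *Stat6*, *Socs1* and *Socs3* kept their direction. Direction changed in *Jak2* without MEC 1 (-0.004) and without line 233 (-0.67), and in *Socs2* without line 233 (0.63) and as the log2 ratio of mean FPKM (0.62). In *Cish* it changed with quantile normalization (0.04), with sample weights (0.15), without MEC 3 (0.02) and without line 199 (0.08). With 1 library left out, the log2 fold change ran from -0.67 to 0.47 in *Jak2*, from -1.40 to 0.63 in *Socs2* and from -0.38 to 0.08 in *Cish*. The cause of these changes was not tested. Of the 13 other named pathway and target genes, 3 (*Csn3*, *Elf5* and *Igfbp5*) were called in each alternative, and the rest lost the call in at least 1 without a change of direction. *Socs1*, *Lifr* and *Csn1s1* had no value with the filter at 5 FPKM. No paired analysis was possible because the groups share no replicate numbers. What depth limits cannot be given, since the read numbers are unknown.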
